A study of Saccharomyces cerevisiae with 13 samples.

Results

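The cytosolic ribosome of Saccharomyces cerevisiae is built from a large and a small subunit, and most of its proteins are encoded by a pair of near-identical paralog genes, called A and B, that remain from an ancient duplication of the genome. The genes described here were chosen by symbol: RPL followed by a number for the large subunit, RPS followed by a number for the small subunit, each with or without A or B, and RPP0, RPP1A, RPP1B, RPP2A and RPP2B for the stalk of the large subunit. The rule found 127 of the 5449 genes measured, 75 of the large and 52 of the small subunit. Of the 127 genes, 109 carried an A or B and 18 were single-copy genes, and 50 pairs had both paralogs measured. The current gene table holds 137 genes that match the rule. The other 10 had no probe set named for them and were not analysed here.

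Ribosomal protein genes are transcribed together by Rap1, Fhl1 and the coactivator Ifh1, with Sfp1 as a further activator, and they are among the most strongly expressed genes of growing yeast. When nutrients are plentiful, the kinase complex TORC1 sustains this transcription through Sch9 and Sfp1, and rapamycin inhibits TORC1. Many of these genes carry introns, and several paralogs are repressed by their own protein through splicing or decay of their transcript.

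The series measured RNA of the haploid strain BY4741 on one-colour Affymetrix arrays, after growth to mid-log phase in the rich medium YPD and 30 min with a compound dissolved in DMSO. SMERs are small molecule enhancers of rapamycin known by code names, and the study asked how their expression signatures differ from those of the solvent and of rapamycin. The 8 groups were DMSO (n = 3 arrays), 100 nM rapamycin (n = 2), 20 µM SMER1 (n = 2), 20 µM SMER1 with 100 nM rapamycin (n = 2), and SMER2, SMER3, SMER4 or SMER5 at 20 µM, each on 1 array only. The labels do not say whether replicates were separate cultures, so the p-values measure the spread between these arrays only. Arrays of 1 group correlated at 0.984 to 0.992 and arrays of different groups at 0.801 to 0.995, and no 2 arrays were identical. Of the marker genes deleted in this strain, URA3 (1.97 to 4.55), LEU2 (6.29 to 8.61) and MET17 (4.05 to 5.78) lay below the median signal of all genes, 11.01. HIS3, of which the strain is known to lack only an internal stretch, lay at 12.14 to 13.18.

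All values are log2 signal intensities, and a difference of 1 is a 2-fold change. One linear model per gene was fitted with limma over the 13 arrays, and a gene was called when its two-sided p, adjusted over all 5449 genes with the Benjamini-Hochberg method, was under 0.05. The spread came from the replicated groups, so a lone array was assumed to vary as they did. Errors of differences are standard errors of this fit. An array reads the RNA of a whole culture, so fewer transcripts per cell and fewer transcribing cells cannot be told apart. The signal of a probe set is not a measure of one gene's amount against another's, and only changes were compared between genes.

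Ribosomal protein probe sets were among the brightest of the array, and 1 DMSO array stood apart in them. Their mean signals ran from 12.04 (RPL15B) to 14.28 (RPS8A), with a median of 13.74, and 102 of the 127 lay above the 95th percentile of all genes, 13.40. None fell below the 25th percentile. Relative to the DMSO mean of each gene, the median of the 127 genes was 0.09 and 0.07 on DMSO replicates 1 and 2 and −0.16 on DMSO replicate 3. The median SD among DMSO arrays was 0.14 for these genes and 0.11 for all genes, and in rapamycin and SMER1 it was 0.04 and 0.06 for these genes. Counts are therefore also given without DMSO replicate 3.

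The ribosomal protein genes were lower after SMER1 with rapamycin than in any other group, and changed little with SMER2, SMER4 and SMER5. Relative to DMSO, their median was −0.36 and −0.48 on the arrays of SMER1 with rapamycin, −0.05 and −0.10 on those of rapamycin, and −0.03 and −0.13 on those of SMER1. It was 0.01 with SMER2, 0.04 with SMER3, 0.05 with SMER4 and 0.00 with SMER5; after quantile normalization the first 3 of these became −0.02, −0.05 and −0.01. The medians of the rapamycin and SMER1 arrays lay within the range of the DMSO arrays, and those of SMER1 with rapamycin lay below it. Quantile normalization of the deposited values moved the median of all genes from 0.16 to 0.02 with rapamycin, from 0.09 to −0.05 with SMER1 and from 0.09 to 0.00 with both. Relative to the median of all genes, the ribosomal protein median was −0.23 with rapamycin, −0.18 with SMER1 and −0.49 with both as deposited, and −0.34, −0.22 and −0.62 after quantile normalization.

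**Figure D1:**
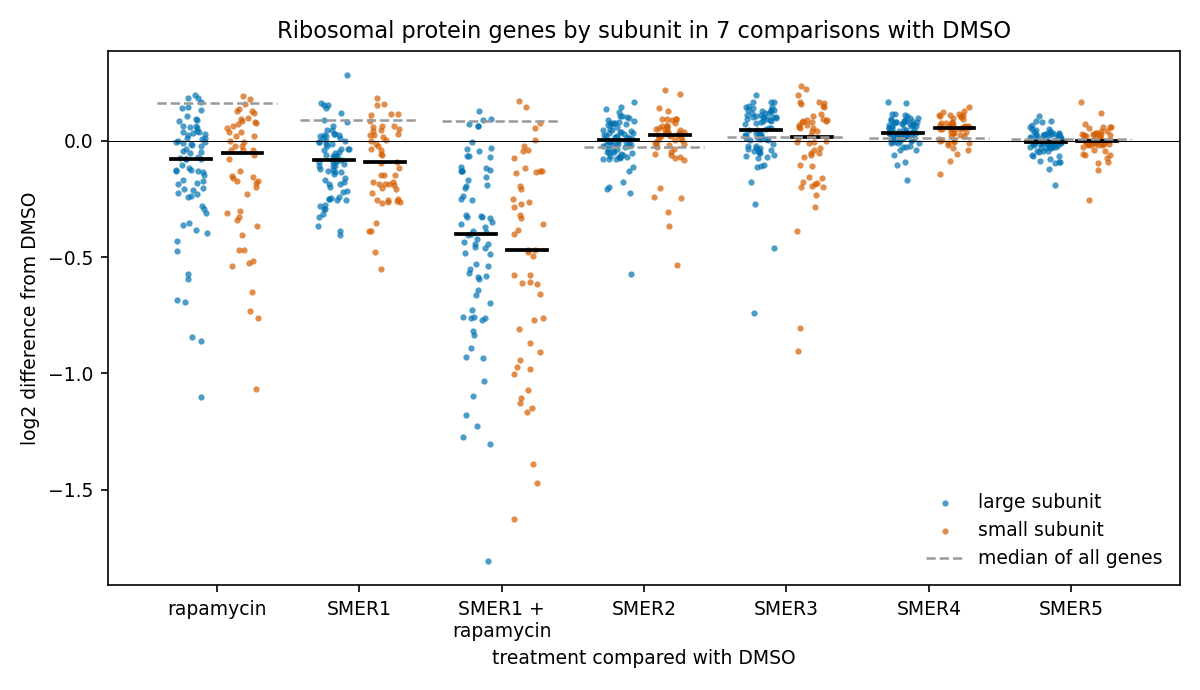
Each point is 1 ribosomal protein gene of the large (blue) or small (orange) subunit, and the vertical axis is its log2 difference from the mean of the 3 DMSO arrays in each of 7 comparisons. Black bars are subunit medians and dashed lines the median of all genes; the points of SMER1 with rapamycin reach down to −1.81, while those of SMER4 and SMER5 stay between −0.26 and 0.17.

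With rapamycin alone, some ribosomal protein genes fell and none was called higher. In limma, 34 of the 127 genes were called lower, a share of 26.8% where 20.4% of all genes were called lower, and 0 were called higher, where 39.7% of all genes were. Both rapamycin arrays lay below all 3 DMSO arrays in 40 genes, where 25.3% of all genes showed this. Of the 34, 33 carried an A or B, and 2 had fallen at least 2-fold, where 6.4% of all genes had. In either direction, 60.1% of all genes were called. The extent depended on the scaling: 90 were called after quantile normalization, all 34 among them, and 49 with DMSO replicate 3 left out.

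RPL22B (YFL034C-A), which encodes a large-subunit protein and whose pre-mRNA splicing is repressed by that protein, fell most. Its signals were 12.99, 12.76 and 12.78 in DMSO and 11.67 and 11.82 with rapamycin. Both treated arrays lay far below every DMSO array, and the difference was −1.10 ± 0.09 (adjusted p = 4.67e-05), a 2.14-fold fall. RPS14B (YJL191W), a small-subunit gene whose pre-mRNA is bound by Rps14, had 13.04, 12.90 and 12.80 in DMSO against 11.88 and 11.82. Its groups did not overlap either, and it fell by 1.07 ± 0.10 (adjusted p = 7.31e-05). RPL31B (YLR406C), whose product lies near the exit of the peptide tunnel, had 13.48, 13.30 and 13.23 in DMSO against 12.53 and 12.42, a difference of −0.86 ± 0.10. RPL27B (YDR471W), a large-subunit gene, had 13.72, 13.66 and 13.51 against 12.72 and 12.85, a difference of −0.84 ± 0.08. In each of these 4 genes the treated arrays lay close together and well below DMSO. RPS9A (YPL081W), whose transcript is spliced under the control of its own protein, was less even, with 12.94, 13.03 and 13.04 in DMSO but 11.96 and 12.53 with rapamycin. Both arrays were still below DMSO, and the difference was −0.76 ± 0.17 (adjusted p = 0.00533). The next falls were those of RPS7B (−0.73 ± 0.08), RPL12A (−0.69 ± 0.09), RPL13A (−0.68 ± 0.10) and RPS24B (−0.65).

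SMER1 alone gave smaller largest falls, and fewer calls in the values as deposited. In limma, 21 of 127 were called lower, 16.5% where 25% of all genes were, and 1 was called higher, where 36.5% of all genes were. Both SMER1 arrays lay below all DMSO arrays in 38 genes, where 30.3% of all genes did. None of the 21 had fallen 2-fold, although 7.05% of all genes had. The count was 86 after quantile normalization, close to the 90 with rapamycin, so the size of this count and its place beside that of rapamycin depended on the scaling. The counts also leaned on single arrays: 49 were called without DMSO replicate 3, as with rapamycin, 10 without DMSO replicate 1, 11 without DMSO replicate 2, 10 without SMER1 replicate 1 and 4 without SMER1 replicate 2.

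The largest fall was that of RPS28B (YLR264W), a small-subunit gene whose mRNA is targeted to decay by its own protein together with Edc3. Its signals were 13.37, 13.23 and 13.14 in DMSO and 12.81 and 12.58 with SMER1, so that the groups did not overlap, and it fell by 0.55 ± 0.11 (adjusted p = 0.00399). RPL12A (−0.40 ± 0.09), RPL13A (−0.39 ± 0.10) and RPS22A (−0.39 ± 0.09) also fell. Each of these 3 lost its call without SMER1 replicate 2. RPL15B (YMR121C), the dimmest probe set of the 127, was the gene called higher, with 12.05, 11.86 and 11.98 in DMSO and 12.30 and 12.19 with SMER1. Its arrays did not overlap, but the rise of 0.28 ± 0.09 (adjusted p = 0.0297) was not called after quantile normalization (0.15) or without either SMER1 array or either of DMSO replicates 2 and 3.

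A direct comparison of the single treatments gave 9 ribosomal protein genes higher with SMER1 than with rapamycin, where 17.1% of all genes were, and 0 lower, where 19.7% of all genes were, out of 36.8% called in either direction. They were RPL22B (0.81 ± 0.10), RPS9A (0.70 ± 0.18), RPS14B (0.68 ± 0.11), RPL27B (0.55 ± 0.09), RPL31B (0.55 ± 0.11), RPS24B (0.50 ± 0.10), RPL9B (0.48 ± 0.07), RPS7B (0.46 ± 0.09) and RPL33B (0.40 ± 0.11). Every one of the 9 had been called lower with rapamycin. RPS28B was lower than DMSO by similar amounts in both groups, and its difference between SMER1 and rapamycin was −0.03 with a 95% interval of −0.33 to 0.26. At an unadjusted p under 0.05, limma gave 15 higher and 0 lower. Without DMSO replicate 3, which enters here only through the spread, 14 were called.

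With SMER1 and rapamycin together, most ribosomal protein genes fell. Against DMSO, limma called 85 of 127 lower, 66.9% where 31.2% of all genes were called lower, and 0 higher, where 39.6% were, and 70.8% of all genes were called one way or the other. Of the 127 genes, 116 had a negative difference, and 87 had both treated arrays below all 3 DMSO arrays, where 35.9% of all genes did. The count of calls ran from 65 to 103 as single arrays were left out, with 103 without DMSO replicate 3. In 16 of the 127 genes the fall was at least 2-fold, a share near that of all genes, of which 11.7% had fallen that far. The 16 were RPL12A, RPL13A, RPL22B, RPL27B, RPL31B, RPL33B, RPL38, RPS0A, RPS9A, RPS14B, RPS16B, RPS19A, RPS22A, RPS24B, RPS27A and RPS28B.

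RPL22B was again lowest, at 11.01 and 11.07 with both compounds against 12.76 to 12.99 in DMSO, a difference of −1.81 ± 0.09 (adjusted p = 2.14e-06) or a 3.50-fold fall. RPS9A stood at 11.24 and 11.52 against 12.94 to 13.04, and it fell by 1.63 ± 0.17. RPS14B stood at 11.52 and 11.37 against 12.80 to 13.04, and it fell by 1.47 ± 0.10. The arrays of all 3 genes were clear of the DMSO arrays by more than 1. RPS28B stood at 11.98 and 11.74, a difference of −1.39 ± 0.11, and RPL27B at 12.33 on both arrays, a difference of −1.30 ± 0.08. At the other end, RPS20, of the small-subunit head (0.17), RPS23A (0.14) and RPL40A (0.13) had the highest differences, none of them called.

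Adding SMER1 to rapamycin lowered ribosomal protein genes beyond rapamycin alone. Against rapamycin, limma called 64 of 127 lower, 50.4% where 28.2% of all genes were, and 0 higher, where 18.1% were, out of 46.4% called in either direction. None of the 64 was 2-fold lower, where 4.17% of all genes were. In 115 genes both arrays of the combination lay below both rapamycin arrays, where 45.3% of all genes did. The median difference was −0.29, against −0.08 for all genes. Without replicate 2 of SMER1 with rapamycin 29 were called, and without rapamycin replicate 1 there were 40.

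The 5 largest of these falls were all in the small subunit. RPS0A, whose protein joins the small subunit late in its maturation, had 13.51 and 13.46 with rapamycin and 12.62 and 12.37 with both compounds, and was lower by 0.99 ± 0.15 in the fit (adjusted p = 0.00177). Its rapamycin arrays had lain inside the DMSO range of 13.40 to 13.79. RPS28B (−0.87 ± 0.12), RPS9A (−0.86 ± 0.18), RPS9B (−0.78 ± 0.09) and RPS16B (−0.76 ± 0.11) were next. RPS9B had 13.75 and 13.78 with rapamycin against 13.04 and 12.94 with both. RPL22B, the largest fall with rapamycin, lost a further 0.70 ± 0.10.

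Adding rapamycin to SMER1 gave 53 of 127 lower than with SMER1 alone, 41.7% where 11.7% of all genes were, and 0 higher, where 4.96% were. The median difference was −0.33, against 0.00 for all genes. The largest differences were those of RPS9A (−1.56 ± 0.18), RPL22B (−1.51 ± 0.10), RPS14B (−1.08 ± 0.11), RPS24B (−1.02 ± 0.10) and RPL27B (−1.01 ± 0.09). This count too moved with single arrays, from 26 without replicate 2 of SMER1 with rapamycin to 68 without DMSO replicate 3. It was 29 without SMER1 replicate 1, 33 without SMER1 replicate 2 and 32 without replicate 1 of SMER1 with rapamycin.

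The difference between the combination and the sum of the single effects was tested as an interaction term. It was below 0 in 123 of the 127 genes, where 68.9% of all genes were below 0, with a median of −0.24 against −0.18 for all genes. Relative to the median of all genes this is −0.06 as deposited and −0.02 after quantile normalization. Limma called 7 lower, 5.51% where 21.3% of all genes were, and 0 higher, where 4.42% were. At an unadjusted p under 0.05 there were 32 lower and 0 higher. After quantile normalization the split was 3 lower and 4 higher, and with each array centred on its median 2 were called.

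Among the 7 called genes were RPS29A (−0.59 ± 0.15), RPS9B (−0.55 ± 0.13), RPL22A (−0.54 ± 0.15), RPS7A (−0.53 ± 0.16), RPS16B (−0.51 ± 0.15) and RPS11B (−0.38 ± 0.11). RPS29A, a zinc-binding protein of the small-subunit head measured by a shared probe set, shows the pattern. It stood at 13.65, 13.63 and 13.38 in DMSO, 13.47 and 13.55 with rapamycin and 13.63 and 13.59 with SMER1, but at 13.06 and 12.89 with both. Neither single treatment left the DMSO range, and the combination lay below every other array. RPL22A, the paralog of RPL22B, stood at 13.63 to 13.93 in DMSO, 13.66 and 13.70 with rapamycin, 13.76 and 13.66 with SMER1 and 13.10 and 12.99 with both. RPS9A (−0.80 ± 0.25, adjusted p = 0.0508) and RPS0A (−0.64 ± 0.20, adjusted p = 0.0550) had larger terms that were not called. The count was unsteady: it was 14 without the 25% dimmest genes and 14 with a variance trend, and leaving out 1 array gave 0 to 11, with 0 without SMER1 replicate 1, without replicate 2 of SMER1 with rapamycin or without rapamycin replicate 2. The count was 1 without SMER1 replicate 2 or rapamycin replicate 1, 3 without DMSO replicate 2 or replicate 1 of SMER1 with rapamycin, and 11 without DMSO replicate 1. A replicate term in the fit raised the count further, as given in the closing section. RPL4B (0.22), RPS26B (0.05), RPL41A (0.04) and RPS7B (0.03) had the positive terms, none called. For the difference between paralogs, the interaction was called in 4 of 50 pairs, where 25.6% of the tests in that fit were called. Among them were RPS7 (−0.55 ± 0.11), RPL4 (−0.47 ± 0.13) and RPP2 (−0.32 ± 0.09), and leaving out any 1 array gave 1 to 3 called pairs.

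**Figure D2:**
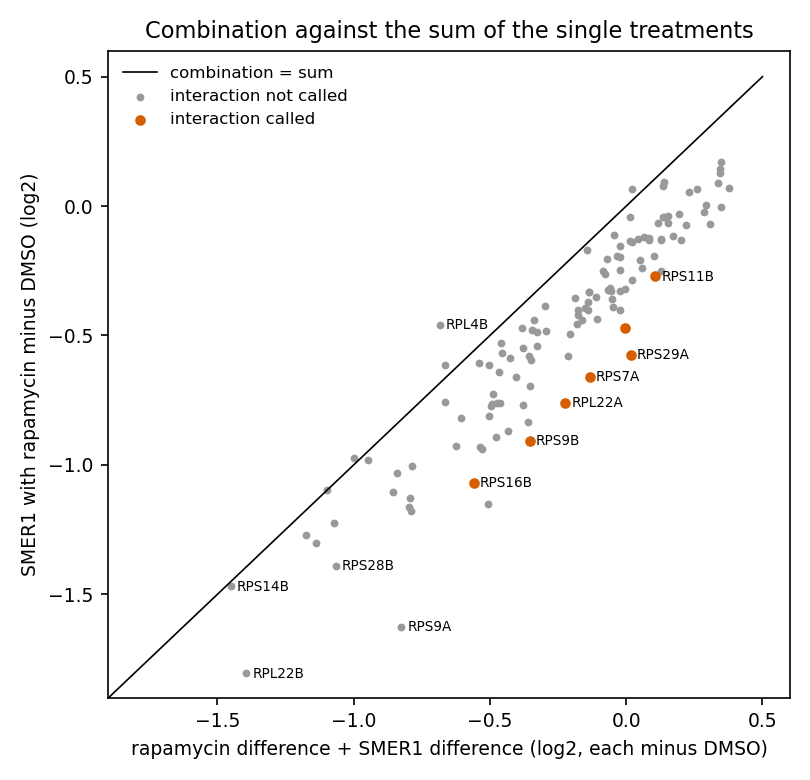
The horizontal axis is the sum of the rapamycin and SMER1 log2 differences from DMSO, the vertical axis the difference of the combination from DMSO, and each point is 1 of 127 ribosomal protein genes. The line marks equality; 123 points have an interaction term below 0 and so lie under it, and the 7 with a called interaction are in orange, with some of the points named.

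Large- and small-subunit genes had medians close to one another in every group. Taken on each array, the median of the large-subunit genes minus that of the small-subunit genes was between −0.01 and 0.01 on the DMSO arrays, between −0.01 and 0.00 with rapamycin, 0.03 and 0.02 with SMER1, and 0.06 and 0.08 with both. It was −0.02 with SMER2, 0.03 with SMER3, −0.02 with SMER4 and 0.00 with SMER5. On both arrays of the combination the large-subunit median was thus nearer to 0. The gap exceeded the spread among DMSO arrays, but those are taken relative to their own mean. The SMER2 and SMER4 arrays also lay outside that spread. The interquartile range of the 127 genes was 0.63 and 0.58 on the combination arrays and 0.05 to 0.06 on the DMSO arrays. The DMSO spread is therefore not a measure of the error of this gap. In the comparisons with DMSO, 19 of 75 large-subunit and 15 of 52 small-subunit genes were called lower with rapamycin, 14 and 7 with SMER1, and 50 and 35 with both. Among all genes, 20.4%, 25% and 31.2% were. The medians with both compounds were −0.40 and −0.47.

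Copy number gave a wider contrast. Single-copy genes were called lower in 1 of 18 with rapamycin, 1 of 18 with SMER1 and 3 of 18 with both, with medians of 0.08, 0.03 and −0.09. Genes with A or B were called lower in 33, 20 and 82 of 109, with medians of −0.12, −0.10 and −0.47. Among all genes, 20.4%, 25% and 31.2% were called lower in the same comparisons. RPL38, a single-copy gene of the large subunit near the tunnel exit, was called in all 3 comparisons, at −0.47, −0.37 and −1.03. RPL29 (−0.60) and RPS15 (−0.40), of the large and the small subunit, were called with both compounds together, while with rapamycin and with SMER1 RPL29 was at −0.18 and −0.17 and RPS15 at −0.02 and −0.12, none of them called. RPL3, a core protein of the large subunit, had 14.25, 14.23 and 13.90 in DMSO and 14.26 and 14.13 with both compounds, and the groups overlapped. The contrast moved with brightness, described below, and its part in the result was not tested.

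Proteins of the stalk, which recruits elongation factors, and the ubiquitin fusions, which release ubiquitin when they mature, were mostly not called. With rapamycin, RPP0 (0.09), RPP1A (0.11), RPP1B (−0.01), RPP2A (0.17), RPP2B (0.04), RPL40A (0.18), RPL40B (−0.13) and RPS31 (0.12) were not called, although RPP2B turned to −0.15 and was called lower after quantile normalization (adjusted p = 0.0327). With SMER1 none was called as deposited, and RPL40B was at −0.25 (adjusted p = 0.0550). With both compounds RPL40B and RPP1B were called. RPL40B had 13.80, 13.85 and 13.60 in DMSO and 13.29 and 13.11 with both, and fell by 0.55 ± 0.10 (adjusted p = 0.00131). RPP1B had 13.92, 13.88 and 13.60 against 13.50 and 13.32, and fell by 0.39 ± 0.12 (adjusted p = 0.0209), a call lost without replicate 2 of SMER1 with rapamycin, DMSO replicate 1 or DMSO replicate 2. The other 6 lay between −0.07 and 0.13. Against rapamycin alone both were also lower, RPL40B by 0.42 ± 0.11 and RPP1B by 0.38 ± 0.13. Both calls against rapamycin were lost without replicate 2 of SMER1 with rapamycin or either rapamycin array, and that of RPP1B also without several others.

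Of the proteins around the exit of the peptide tunnel, 5 of 12 were called lower with rapamycin (RPL17B, RPL26A, RPL26B, RPL31B and RPL38), 5 with SMER1 (RPL17B, RPL19A, RPL26B, RPL31B and RPL38) and 8 with both. The shares of all genes called lower were 20.4%, 25% and 31.2%, and with both compounds the tunnel exit genes were called about as often as the 127 genes together, 66.9%. Those not called with both were RPL25 (−0.13), RPL31A (−0.13), RPL35A (−0.19) and RPL39 (−0.11). Of the partners of 5S ribosomal RNA, RPL11A (−0.33) and RPL11B (−0.32) were called with both compounds, RPL5 (−0.07) was not, and none was called with a single compound. In a list of 6 genes around the mRNA entry site, which does not cover all head proteins, RPS10A and RPS10B, each on a shared probe set, fell with both compounds by 0.94 and 0.76, while RPS2 (−0.12), RPS3 (−0.04), RPS20 (0.17) and RPS30A (−0.14) were not called.

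Changes were also compared between the paralogs of 1 protein. The difference between A and B was taken on each array and its change tested in the same limma model, with the adjustment over all genes and the 50 pairs. It was called in 29 of 50 pairs with rapamycin, where 60.1% of all tests in that fit were called, in 20 with SMER1, where 61.4% were, and in 39 with both compounds, where 70.9% were. Against the background of each fit the share was near it with rapamycin, below it with SMER1 and above it with both. That background is almost all changes of single genes, so it is not one of differences between genes. A had the more negative change in 11, 7 and 17 of the called pairs, and B in 18, 13 and 22. The median absolute change between paralogs was 0.22, 0.17 and 0.43, and was 0.09 with SMER2, 0.10 with SMER3, 0.04 with SMER4 and 0.03 with SMER5.

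RPS14A and RPS14B moved furthest apart. RPS14A stood at 14.06, 13.98 and 13.70 in DMSO, 14.01 and 13.87 with rapamycin and 13.65 and 13.54 with both compounds. Its rapamycin arrays lay inside the DMSO range while those of RPS14B lay well below its own, and the change of A minus B was 1.09 ± 0.07 with rapamycin (adjusted p = 1.91e-05) and 1.15 ± 0.07 with both (adjusted p = 5.94e-06). RPL22A and RPL22B changed apart by 0.97 ± 0.10 with rapamycin and by 1.04 ± 0.10 with both. RPL31A stood at 14.02, 14.08 and 13.84 in DMSO, at 14.04 and 14.05 with rapamycin and at 13.89 and 13.81 with both. It was not called in either comparison, and the pair changed apart by 0.93 ± 0.09 and 1.14 ± 0.09. RPS7A and RPS7B changed apart by 0.69 ± 0.07 with rapamycin, RPS7B being the lower. Between the combination and rapamycin, 17 pairs were called, where 46.3% of the tests were. Between the combination and SMER1 there were 24, where 17.1% were, and between SMER1 and rapamycin 13, where 36.8% were.

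In some pairs A was the copy that fell. RPS9 is one, with a change of A minus B of −0.63 ± 0.19 with rapamycin (adjusted p = 0.0232), a call lost without rapamycin replicate 1, DMSO replicate 2 or DMSO replicate 3. RPS27 is another, with a zinc-binding small-subunit protein. RPS27A had 13.97, 13.86 and 13.67 in DMSO and 12.68 and 12.73 with both compounds, and RPS27B had 14.14, 14.16 and 13.85 against 13.87 and 13.74. RPS27A left the DMSO range, RPS27B overlapped it, and the change of A minus B was −0.88 ± 0.08. RPS28 changed apart by 0.91 ± 0.07 with both compounds, B being the lower. With SMER1 large changes were those of RPL40 (0.41 ± 0.06), RPL4 (0.41 ± 0.09), RPS19 (−0.38 ± 0.09) and RPL31 (0.38 ± 0.09, not called without SMER1 replicate 2). RPL4A and RPS19B were read by shared probe sets. The count of pairs with SMER1 was 12 without SMER1 replicate 1 and 11 without SMER1 replicate 2.

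**Figure D3:**
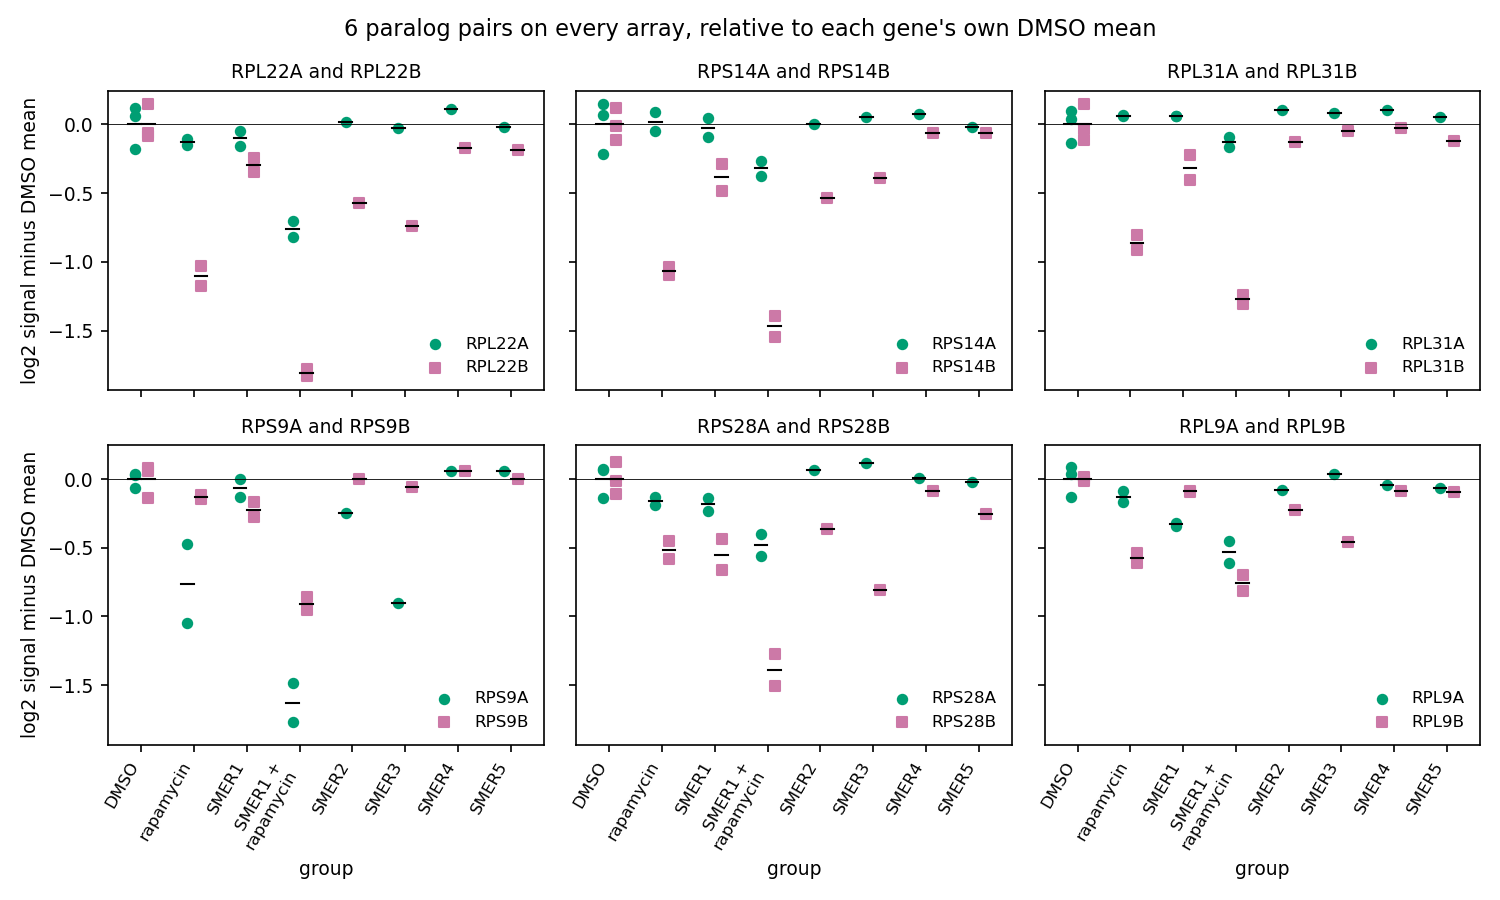
Each panel shows 1 of 6 paralog pairs, with the groups on the horizontal axis and, on the vertical axis, the log2 signal of every array minus the mean of that gene on the 3 DMSO arrays. Circles are A paralogs, squares B paralogs and bars group means; RPL22B, RPS14B, RPL31B and RPS28B lie below their A partners with rapamycin and with both compounds, and RPS9A lies below RPS9B.

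In pairs as in single genes, the paralog with the dimmer probe set was usually the one that fell. It had the more negative change in 28 of the 29 called pairs with rapamycin, 17 of 20 with SMER1 and 35 of 39 with both compounds, whichever letter it carried. A was the dimmer in 20 of the 50 pairs. Dimmer was judged on the mean of all 13 arrays, treated ones included, so a fall itself pulls a paralog toward that label. In some called pairs the means of A and B were close, as in RPS16 (13.61 and 13.57), RPS21 (14.07 and 14.16) and RPL16 (13.86 and 13.89). These counts are therefore descriptions, and the order of the paralogs in DMSO alone was not used. With rapamycin both members were called lower in 4 pairs, A alone in 12 and B alone in 13. With both compounds both were called in 32 pairs, A alone in 7 and B alone in 9, and neither in RPL24 and RPP2.

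**Figure D4:**
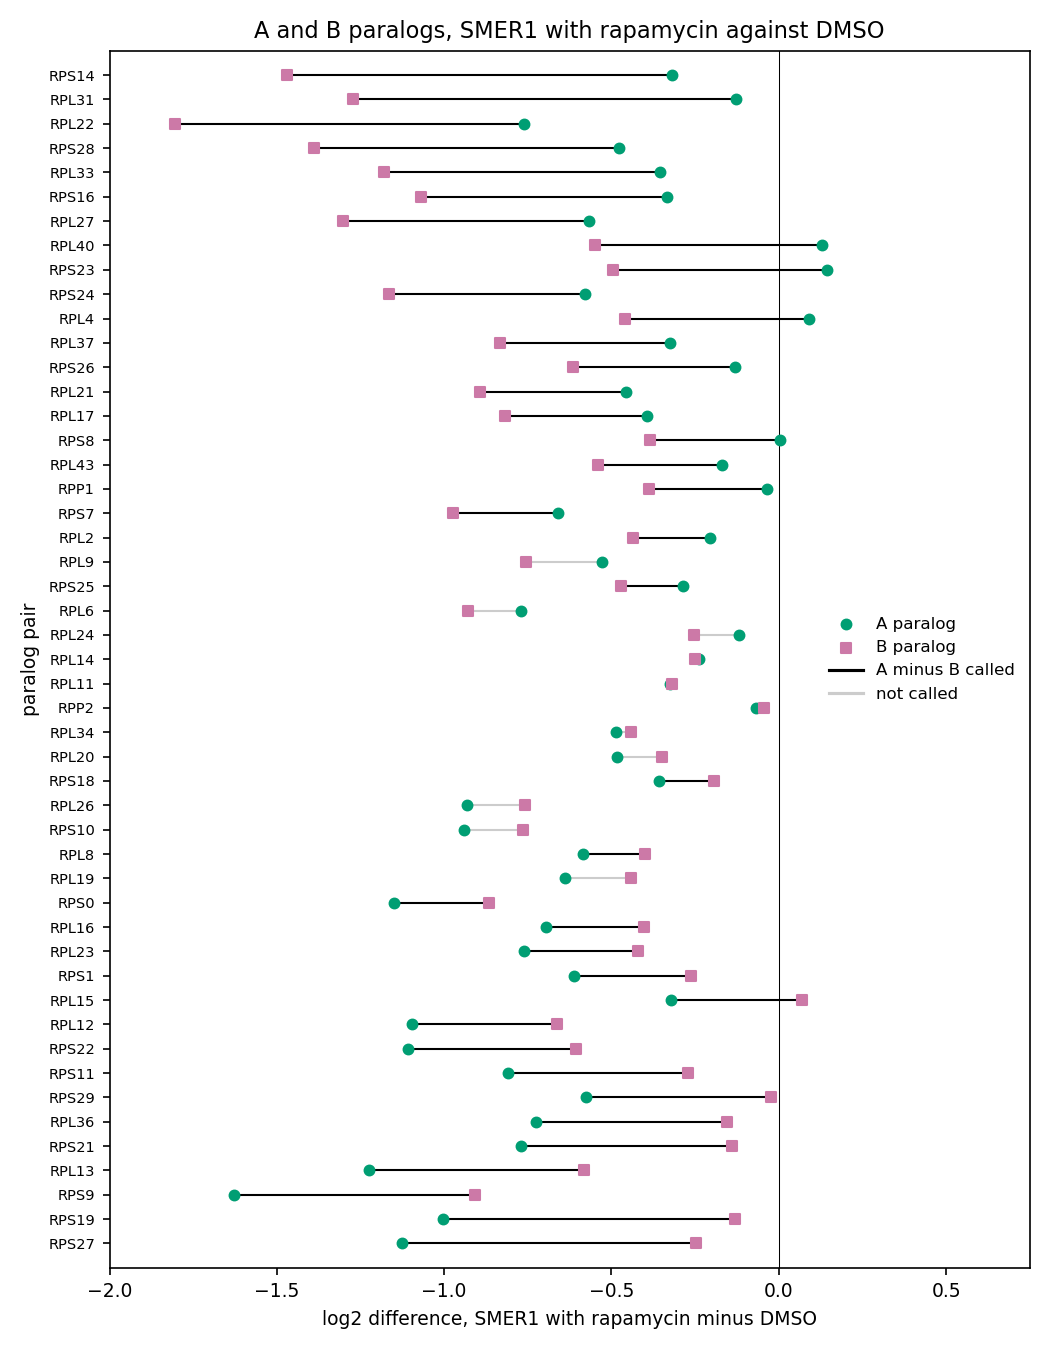
Each line is 1 of 49 of the 50 paralog pairs, ordered by the change of A minus B; the horizontal axis is the log2 difference between SMER1 with rapamycin and DMSO for the A (circle) and B (square) paralog. Black lines mark the 38 of these pairs in which A and B changed differently by the test and grey lines the others; most points lie to the left of 0 on both sides of a pair.

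Brightness moved with the size of the fall among all 127 genes. Split by mean signal into sets of 43, 42 and 42 genes, dimmest first, 30, 4 and 0 were called lower with rapamycin, 19, 2 and 0 with SMER1 and 41, 35 and 9 with both. Among all genes, 20.4%, 25% and 31.2% were called lower in these comparisons, and 39.7%, 36.5% and 39.6% higher. The median differences were −0.37, −0.08 and 0.06 with rapamycin and −0.81, −0.43 and −0.13 with both. Across the 127 genes the rank correlation between mean signal and change was 0.73 with rapamycin, 0.65 with SMER1 and 0.73 with both. These are descriptions over genes that share the arrays, and the mean signal includes the treated arrays. Among 112 other genes as bright as the middle part of the ribosomal protein genes, 0, 1 and 6 were called lower and 89, 66 and 65 higher. Genes read by shared probe sets, which also respond to a near-identical transcript, were called lower in 2, 1 and 12 of 26, and genes with a probe set of their own in 32, 20 and 73 of 101. Of the 9 genes with A or B whose partner had no named probe set, all were on shared probe sets, and RPL7A (−0.33) and RPL42B (−0.37) were called with both compounds. The part of brightness and of shared probe sets in the results was not tested.

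**Figure D5:**
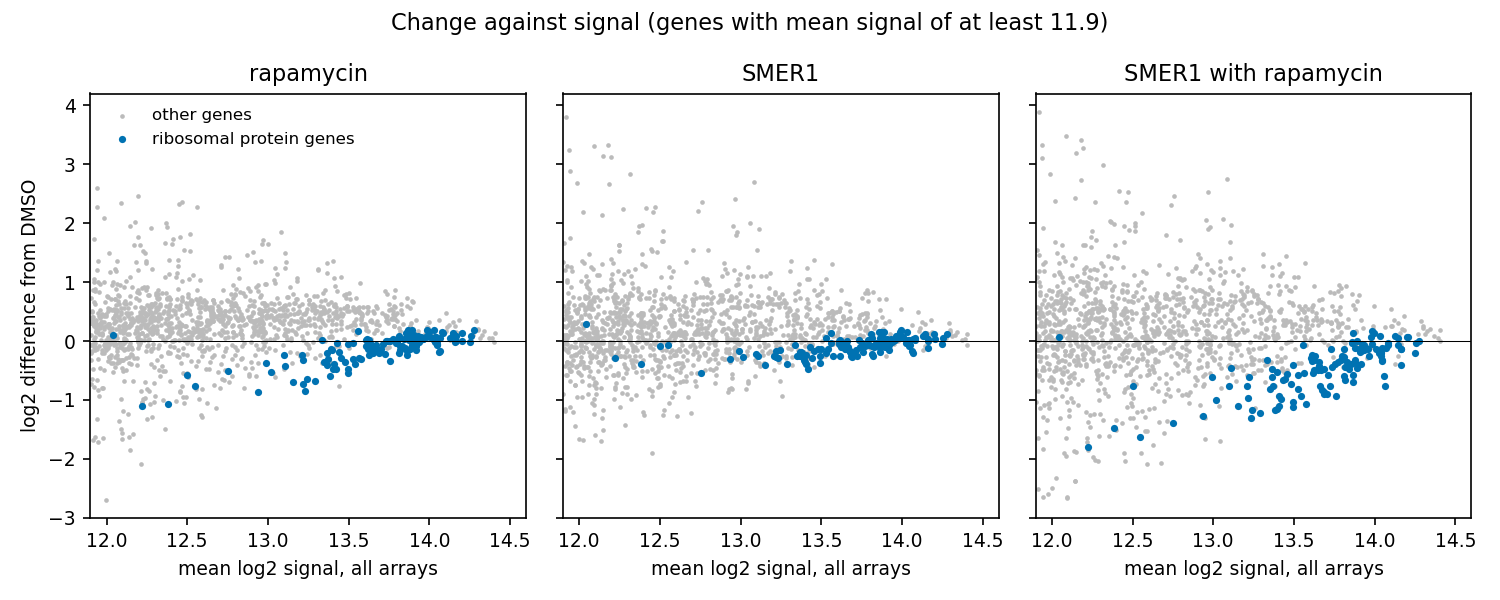
The horizontal axis is the mean log2 signal over the 13 arrays and the vertical axis the log2 difference from DMSO, for genes about as bright as the dimmest ribosomal protein gene or brighter, in 3 comparisons. Ribosomal protein genes (blue) with the largest falls lie toward the dim end, RPL22B at −1.10 with rapamycin, though RPL15B, the dimmest, lies at 0.09. The blue points lie lower with both compounds. Other genes (grey) lie on both sides of 0, and those as bright as the middle part of the ribosomal protein genes were called higher more often than lower.

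The single SMER3 array was low in a few ribosomal protein genes, all of them paralogs. Its calls rest on the spread of the other groups, so they describe this array and have no replicate check. In limma 5 of 127 were called lower, 3.94% where 14.8% of all genes were, and 0 higher, where 21.6% were, out of 36.4% called in either direction. The array lay below all DMSO arrays in 15 of the 127 genes, where 37.4% of all genes did, and above them in 31, where 40% did. RPS9A stood at 12.10 against 12.94 to 13.04 in DMSO, a difference of −0.91 ± 0.21 (adjusted p = 0.0133). RPS28B stood at 12.44 against 13.14 to 13.37 (−0.80 ± 0.14, adjusted p = 0.00412), and RPL22B at 12.10 against 12.76 to 12.99 (−0.74 ± 0.12, adjusted p = 0.00230). RPL9B (YNL067W), a large-subunit gene, stood at 12.32 against 12.77 to 12.80 (−0.46 ± 0.08), and RPS14B at 12.53 against 12.80 to 13.04 (−0.39 ± 0.12, adjusted p = 0.0447). All 5 lay below every DMSO array, and all 5 remained among the 15 called after quantile normalization and the 6 called with arrays centred. Without DMSO replicate 3 the count was 13. RPS29A (0.23), RPS20 (0.22) and RPS29B (0.20) had the largest positive differences, none called. In 9 of 50 pairs the change of A minus B was called, where 36.2% of that fit's tests were. In all 9 the dimmer paralog, judged on the mean of all 13 arrays, was the lower. The largest changes of A minus B were those of RPS28 (0.92 ± 0.09), RPS9 (−0.85 ± 0.24) and RPL22 (0.72 ± 0.12). The partners RPS28A (0.12), RPS9B (−0.05) and RPL22A (−0.02) were not called.

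At the same dose and time, the single SMER3 array differed from the SMER1 arrays in 6 ribosomal protein genes by the same fit, again with no spread of its own. Those lower with SMER3, where 26.1% of all genes were, were RPS9A (−0.84 ± 0.22), RPL22B (−0.44 ± 0.12) and RPL9B (−0.37 ± 0.08). Those higher, where 20.6% of all genes were, were RPL9A (0.36 ± 0.12), RPL38 (0.35 ± 0.11) and RPS26B (0.41 ± 0.14). For RPL9 the paralogs differed between the compounds in opposite directions. RPL9B was 12.70 and 12.69 with SMER1 and 12.32 with SMER3, while RPL9A was 13.24 and 13.22 with SMER1 and 13.59 with SMER3. Relative to DMSO, RPL9A was at −0.33 with SMER1 and 0.035 with SMER3, and RPL9B at −0.09 and −0.46. RPL9A was thus lower with SMER1 rather than raised with SMER3. After quantile normalization the split was 3 lower and 48 higher. The count of 6 became 11 without DMSO replicate 3, 3 without DMSO replicate 2 or either rapamycin array, and 2 without either SMER1 array.

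SMER2, SMER4 and SMER5 gave no call among the 127 genes in limma. With SMER2, 0.22% of all genes were called lower and 0.0918% higher (0.312% in all), and with SMER4 and SMER5 0% were called in either direction. At an unadjusted p under 0.05, 5 ribosomal protein genes were lower with SMER2, and 0 with SMER4 and SMER5. With SMER2 the lowest were RPL22B at 12.27 (−0.57, adjusted p = 0.148), RPS14B at 12.38 (−0.53, adjusted p = 0.185) and RPS28B at 12.88 (−0.36, adjusted p = 0.529), each below every DMSO array. They are genes that also led the falls with other treatments, but as values on 1 array. Every comparison with DMSO uses the same DMSO arrays, so this recurrence is not independent. The genes were also dim for this set, with means of 12.22, 12.38 and 12.75. The highest were RPS29A (0.22), RPS2 (0.20) and RPL37B (0.17). On the SMER2 array 14 genes lay below all DMSO arrays, where 29.9% of all genes did, and 14 above, where 20% did.

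With SMER4 the lowest were RPL22B (−0.17), RPS22B (−0.14) and RPL4B (−0.10) and the highest RPL4A (0.17), RPP2A (0.16) and RPS29A (0.15). With SMER5 the lowest were RPS28B (−0.26), RPL22B (−0.19) and RPS22B (−0.13) and the highest RPS29A (0.17), RPS7A (0.12) and RPL4A (0.11). Of the 127 genes, 3 lay below and 11 above all DMSO arrays with SMER4, where 17.6% and 21.5% of all genes did, and 6 and 3 with SMER5, where 22% and 23.8% did. With 1 array each the precision was low: the 95% interval of the RPL22B difference was −0.44 to 0.10 with SMER4 and −0.46 to 0.08 with SMER5. No stalk or ubiquitin fusion gene was called with SMER2, SMER3, SMER4 or SMER5, and their differences ran from −0.02 to 0.19.

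Of 16 regulators of the ribosomal protein genes, 2 were called lower and 6 higher with rapamycin, where 20.4% and 39.7% of all genes were. With SMER1 there were 5 and 6, where 25% and 36.5% were, and with both 6 and 6, where 31.2% and 39.6% were. The regulators were called lower less often than all genes with rapamycin and somewhat more often with SMER1 and with both. They were called higher about as often as all genes. Single members are given as values. RAP1 was lower in these comparisons, at −0.95 ± 0.07, −0.82 ± 0.07 and −1.36 ± 0.07, and IFH1 at −0.67 ± 0.12, −1.02 ± 0.12 and −1.95 ± 0.12. CRF1, a corepressor of these genes, rose by 1.03 ± 0.28, 1.53 ± 0.28 and 1.73 ± 0.28, and the kinase gene YAK1 by 0.87 ± 0.08, 1.65 ± 0.08 and 1.86 ± 0.08. On the SMER3 array 5 were called lower, where 14.8% of all genes were, and 5 higher, where 21.6% were, among them IFH1 (−1.60 ± 0.15) and CRF1 (2.90 ± 0.36).

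Of 20 chaperones, importers and assembly partners, 12 were called lower and 3 higher with rapamycin, 14 and 0 with SMER1 and 16 and 0 with both, with medians of −0.91, −1.01 and −1.70. The shares of all genes called lower were 20.4%, 25% and 31.2%, and those called higher 39.7%, 36.5% and 39.6%. LTV1, which acts in assembly of the small subunit, was lowest in all 3, at −2.36 ± 0.29 with SMER1 and −3.57 ± 0.29 with both. SYO1, which imports Rpl5 and Rpl11, was at −2.25 ± 0.27, −1.72 ± 0.27 and −3.31 ± 0.27. Others with large falls were ACL4, the chaperone of Rpl4 (−1.78 ± 0.12 with rapamycin), PUF6 (−1.72 ± 0.18 with rapamycin), the importin gene KAP123 (−1.70 ± 0.08 with SMER1) and RRB1, the chaperone of Rpl3 (−2.60 ± 0.13 with both). Of their client genes, RPL3 was at 0.14, 0.12 and 0.06 and RPL5 at 0.13, 0.02 and −0.07 in these comparisons, none called. Other clients were lower: RPL4B was called in all 3, at −0.43, −0.25 and −0.46. Its paralog RPL4A was at 0.18, 0.15 and 0.09 and was not called. RPL11A (−0.33) and RPL11B (−0.32) were called lower with both compounds and with neither alone. Among proteins bound to finished ribosomes, ASC1 (−0.29 ± 0.09) and LSO2 (−0.47 ± 0.09) were called lower with both compounds, and STM1 and TMA19 were not.

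For comparison, 61 of 61 ribosome assembly factors chosen by symbol were called lower with rapamycin, with SMER1 and with both, with medians of −1.73, −1.30 and −2.59. Of 66 mitochondrial ribosomal protein genes, which serve the separate ribosome of that organelle, 35, 56 and 52 were called higher and 2, 0 and 1 lower, with medians of 0.21, 0.42 and 0.39. The shares of all genes called higher were 39.7%, 36.5% and 39.6%, and those called lower 20.4%, 25% and 31.2%. On the SMER3 array 19 of the assembly factors were called lower, and of the mitochondrial genes 15 were lower and 8 higher, where 14.8% of all genes were lower and 21.6% higher.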

How the data were processed

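The deposited values, 1 for each of 5716 probe sets on 13 arrays, ran from 0 to 14.67 and were taken as log2 signal intensities from that range, since the sources used here do not state the scale. How the authors summarised, background-corrected and normalised the arrays is not given in the sources used here. No further normalization was applied. Through a table of probe set names, a single gene was named for 5498 probe sets and none for 218, and 12 symbols were updated from the R64 gene table. For 47 genes with several probe sets the brightest on average was kept, which left 5449 genes. Of the 127 ribosomal protein genes, 26 were read by probe sets marked as shared between similar transcripts.

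Differences came from limma 3.58.1 in R 4.3.3 (lmFit and eBayes, 1 mean per group, 5 residual degrees of freedom, no filter), tested on simulated data. Named genes are the stalk and ubiquitin fusion genes, the 5 called falls and 3 called rises that were largest and did not overlap in the main comparisons, the 3 lowest and highest on lone arrays, the 5 largest called pair changes and up to 4 regulators or chaperones. Some results that the rule names are not reported here, and others were named after their values were seen. The genes and lists were chosen with earlier results of these data known. Alternatives covered scaling, probe sets, dim genes, the variance model, pairing by replicate number and leaving out arrays. The number of arrays limits the precision.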

Additional observations from a re-analysis of the deposited data

Results flagged for a closer look

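In 7 ribosomal protein genes, 6 of them named here, the effect of SMER1 differed with rapamycin present from that without it, by the interaction term of the limma model. The terms were −0.59 for RPS29A, −0.55 for RPS9B, −0.54 for RPL22A, −0.53 for RPS7A, −0.51 for RPS16B and −0.38 for RPS11B. The 7 are 5.51% of the 127 genes, where 21.3% of all genes were called lower and 4.42% higher. None was called without SMER1 replicate 1, replicate 2 of SMER1 with rapamycin or rapamycin replicate 2, and the split after quantile normalization was 3 lower and 4 higher. More genes were called with a replicate term in the fit, as given below. For 4 paralog pairs the change of A minus B differed in the same way, by −0.55 for RPS7, −0.47 for RPL4 and −0.32 for RPP2 in the 3 named here. In each of these 3 the A paralog had the more negative term, and the background of that fit was 25.6% of tests called.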

How the results depend on the processing

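Of 188 named differences checked under up to 18 alternatives each, 3204 of 3317 checks kept the direction and the side of the threshold. In 81 a call was lost, in 31 one was gained, and 1 reversed: RPP2B with rapamycin became −0.15 after quantile normalization. Causes were not tested. Quantile normalization, which forces the arrays to 1 distribution, gave 90 calls with rapamycin, 86 with SMER1, 83 for the combination against SMER1, 21 for SMER1 against rapamycin, 15 with SMER3 and 51 for SMER3 against SMER1, with 31 pairs for SMER1 and 8 for the interaction. All 34 rapamycin calls and 21 of the 22 SMER1 calls were among them. For the interaction, 2 genes were called with arrays centred, 14 without the 25% dimmest genes and 14 with a variance trend. That trend gave 8 pairs for SMER1 and 1 for the interaction.

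By the rule used, replicate numbers were not taken to pair the arrays, and the main fit held no replicate term. Same-numbered deviations correlated at 0.0705 to 0.598, over 0.1 in 10 of 12 pairings. All 12 were positive, and the lowest (0.0705, 0.0848 and 0.131) all involved the same DMSO array. Among the treated groups the values 0.552, 0.598 and 0.436 each appeared under both numbers, so these are not separate pairings. Of 8 arrays, 5 correlated best with their own number. Whether same-numbered arrays shared an effect was not tested. With the replicate block the counts were 63 with rapamycin, 68 with SMER1, 107 for the combination against rapamycin, 94 against SMER1, 21 for SMER1 against rapamycin, 31 for the interaction, 4 with SMER2, 20 with SMER3 and 20 for SMER3 against SMER1, and the interaction had 8 pairs. The order of the rapamycin and SMER1 counts turned under the block.

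The large minus small subunit difference, here taken over each gene's fitted difference and so not equal to the values per array (−0.026 with rapamycin, 0.0094 with SMER1, 0.070 with both, 0.028 with SMER3), became 0.034, 0.031 and 0.087 in the first 3 after quantile normalization. With probe sets averaged it was −0.0088, 0.035, 0.050 and 0.045, and without shared probe sets 0.036, 0.053, 0.109 and 0.0535. It was −5e-04, 0.019 and 0.048 with the replicate block for rapamycin, SMER1 and SMER3, and 0.025, 0.043 and 0.061 with a gene's own probe set where it has one, an alternative chosen after seeing the data. Its sign with rapamycin therefore depends on these choices.

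Leaving out 1 array at a time gave 26 to 49 calls with rapamycin, 4 to 49 with SMER1, 65 to 103 with both, 29 to 86 against rapamycin and 26 to 68 against SMER1. It gave 7 to 14 for SMER1 against rapamycin, 0 to 11 for the interaction, 4 to 13 with SMER3, 2 to 11 for SMER3 against SMER1 and 0 with SMER2, SMER4 and SMER5. Pairs numbered 20 to 28, 11 to 20, 32 to 38 and 1 to 3 for rapamycin, SMER1, both and the interaction. The subunit difference ran from −0.0345 to −0.00017, −0.0033 to 0.033, 0.065 to 0.078 and 0.020 to 0.028. The number of arrays limits all of these, and probe brightness was not adjusted for.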
